A study of Mus musculus with 13 samples.

Results

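The comparison described here is the loss of the microRNA miR-146a in bone marrow that already lacked the gene Tifab. It sets 4 libraries of the genotype TIFAB-/-;miR-146a-/- (dKO) against 3 libraries of the genotype TIFAB-/-;miR-146a+/+ (TIFAB_KO). It covers the 11866 of 24062 deposited genes (49.3%) whose mean over these 7 libraries was at least 0 on the log2 CPM scale (CPM, read counts scaled to the library's total). Of these genes, 11601 reached that level in the mean of both groups, 184 only in dKO and 81 only in TIFAB_KO. The genes nearest the threshold were Rnu11 (mean -0.000573 log2 CPM) just outside it and AV039307 (0.00285) just inside it.

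The cells were LK cells, the fraction of mouse bone marrow that carries c-Kit but neither Sca-1 nor lineage antigens, which holds committed myeloid, erythroid and megakaryocyte progenitors. They were sorted from lethally irradiated Boy/J recipients (7.0 and then 4.75 Gy, 3 h apart) that had been given marrow of 1 genotype, so every library comes from cells that had passed through a transplant. The mice are described as 2 to 5 months old. Libraries of miR-146a_KO (TIFAB+/+;miR-146a-/-, 3 libraries) and WT (TIFAB+/+;miR-146a+/+, 3 libraries) give the same loss of miR-146a with Tifab intact and share no library with the main comparison. Tifab is absent by design from all 7 libraries of the main comparison, and the labels name no promoter, Cre or inducing agent for either deletion. They state 3 mice per group, fewer than the 4 dKO libraries, and do not tie each library to its own mouse, so p-values measure the spread between libraries, which may be technical. The labels do not say whether the sort was gated on donor origin, so host cells that survived irradiation may be included.

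As background, miR-146a is a microRNA that NF-kB induces and that pairs with the messenger RNAs of the adaptor TRAF6 and the kinase IRAK1, which carry signals from Toll-like receptors and the interleukin-1 receptor to NF-kB. TIFAB is a relative of the TRAF6-binding protein TIFA and is known to restrain TRAF6 by another route. In humans the genes for both lie on the long arm of chromosome 5, in a stretch that is often lost in myelodysplastic syndrome. A microRNA recognises its targets mainly through its seed, bases 2 to 8 from its 5′ end.

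The mature sequence of the deleted microRNA and that of miR-146b, which is made from another chromosome and has the same seed, are shown with the seed in capitals, since every target site given further on is the complement of that seed.
mmu-miR-146a-5p: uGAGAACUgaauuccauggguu
mmu-miR-146b-5p: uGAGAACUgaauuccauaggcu
They are the RefSeq entries on GRCm38.p6, miR-146a-5p at chr11:43374435-43374456 on the minus strand and miR-146b-5p at chr19:46342790-46342811 on the plus strand. The row for the miR-146a gene had 0 reads in all 13 libraries and that for miR-146b had at most 1, so the labels for miR-146a could not be checked on the microRNA itself.

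In the 3′ untranslated region of the annotated transcript, the sites that match the seed of miR-146a are shown for Traf6 and Irak1, its textbook targets, and for Gm2a, the single gene with a match among those that changed. Capitals mark the match, AGTTCTC or, with the A opposite base 1, AGTTCTCA.
Traf6 site 1: ccgctctggtgttgAGTTCTCA
Traf6 site 2: ccctggaaggcttaAGTTCTCA
Traf6 site 3: gtactttggagtctAGTTCTCA
Traf6 site 4: gactttgctactgcAGTTCTCA
Irak1 site 1: gactcagaggtcaaAGTTCTCA
Irak1 site 2: ttctcatgcttggaAGTTCTCA
Gm2a site: gtaccaccacgcctAGTTCTCt
On GRCm38 the first Traf6 site lies at chr2:101697945-101697966 (plus strand), the first Irak1 site at chrX:74015393-74015414 (minus strand) and the Gm2a site at chr11:55111548-55111569 (plus strand). The letters AGTTCTC, searched on the transcript strand only, occurred in the 3′ untranslated region of 1439 of the 11236 tested genes that had an annotated one (12.8%), and AGTTCTCA in 534 (4.75%).

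The 7 libraries held 8.08 to 11.7 M reads counted on genes in dKO and 8.38 to 12.8 M in TIFAB_KO. TIFAB_KO replicate 3 and dKO replicate 3 stood apart from the rest, with median correlations to the other libraries of 0.947 and 0.950 against 0.962 to 0.973. The 45S pre-ribosomal RNA took 4.36 to 6.43% of reads in dKO and 6.57 to 10.7% in TIFAB_KO, so the groups did not overlap in this share. Kit, the receptor used in the sort, had 270.0 to 459.0 CPM, the T cell gene Cd3e had at most 0.813 CPM and the B cell gene Ms4a1 at most 0.42 CPM. Tifab itself had 6.25, 4.27, 3.28 and 11 CPM in dKO and 9.01, 11.8 and 12.9 CPM in TIFAB_KO, against 64.5 to 70.8 CPM in miR-146a_KO and 39.6 to 49.5 CPM in WT. The remaining Tifab reads overlapped between dKO and TIFAB_KO, and the difference of -0.99 ± 0.29 (log2, SE) did not pass the test (adjusted p = 0.15).

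Only 4 genes passed the test in dKO against TIFAB_KO, in limma with Benjamini-Hochberg adjustment over all 11866 genes at 0.05. These 4 genes are 0.0337% of those tested. The 2 that rose were Wdfy1 and Lyrm7 (0.0169%), and the 2 that fell were Gm2a and Rplp1 (0.0169%). The median log2 difference over all tested genes was 0.0912, with the 5th and 95th percentiles at -0.612 and 0.703, so each of the 4 lay far outside the bulk of genes. At an unadjusted p under 0.05 there were 2185 genes (18.4%), 1483 higher (12.5%) and 702 lower (5.92%), and the groups did not overlap in 809 genes that were higher in dKO (6.82%) and 456 that were lower (3.84%).

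Wdfy1 encodes an endosomal protein that is known to link Toll-like receptors to the adaptor TRIF. It had 77.4, 69.9, 66.2 and 61.7 CPM in the dKO libraries and 14.3, 15.8 and 7.39 CPM in the TIFAB_KO libraries. Every dKO library was thus well above every TIFAB_KO library. On the log2 scale the means were 6.10 ± 0.14 in dKO and 3.57 ± 0.59 in TIFAB_KO (SD, n = 4 and 3), and Wdfy1 rose by 2.53 ± 0.22 (SE, adjusted p = 8.77e-06), which is 5.79-fold. The gene lies at chr1:79702262-79776143 on the minus strand, and its annotated exons share 126 bases with Mrpl44 on the opposite strand, for which the difference was -0.31 ± 0.16 (adjusted p = 0.312). No seed match was found in its 3′ untranslated region.

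Lyrm7 encodes an assembly factor that delivers the iron-sulfur protein to respiratory complex III in mitochondria. It had 28.2, 29.3, 30.7 and 19.7 CPM in dKO and 2.21, 5.74 and 5.04 CPM in TIFAB_KO. The lowest dKO library was above the highest TIFAB_KO library, and Lyrm7 rose by 2.73 ± 0.30 (adjusted p = 9.84e-05), 6.65-fold. The list of complex III and its assembly did not share this as a whole. Of 14 tested, Lyrm7 among them, 7 were above 0 and 7 below, and Lyrm7 was the one called. At an unadjusted p under 0.05, 2 were higher (14.3%, against 12.5% of all genes) and 3 lower (21.4%, against 5.92%). Uqcr10 and Uqcr11, small subunits of the complex, had differences of -0.62 and -0.78 (adjusted p = 0.137 and 0.131).

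Gm2a encodes the GM2 ganglioside activator, the lysosomal protein that presents GM2 ganglioside to beta-hexosaminidase A. It had 73.9, 67.9, 62.9 and 61.0 CPM in dKO and 214.0, 193.0 and 184.0 CPM in TIFAB_KO. The groups were far apart and tight, at 6.05 ± 0.12 and 7.62 ± 0.11 log2 CPM (SD, n = 4 and 3), and Gm2a fell by 1.57 ± 0.14 (adjusted p = 8.77e-06). The alpha subunit of the enzyme it serves, Hexa, had 5.37, 5.15, 5.29 and 5.51 log2 CPM in dKO and 5.76, 6.22 and 6.41 in TIFAB_KO. Those groups did not overlap either, but the difference of -0.80 ± 0.18 did not pass the test (adjusted p = 0.13).

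Rplp1 encodes P1, one of the acidic proteins of the stalk of the large ribosomal subunit. It had 130.0, 125.0, 135.0 and 191.0 CPM in dKO and 281.0, 312.0 and 468.0 CPM in TIFAB_KO and fell by 1.27 ± 0.19 (adjusted p = 0.00782). The highest dKO library was replicate 4 and the highest TIFAB_KO library was replicate 3. Leaving out that TIFAB_KO library gave -1.05, which no longer passed (adjusted p = 0.0861), and the call was also lost without dKO replicate 1 or dKO replicate 2. Over 27 other settings its adjusted p ranged between 0.00107 and 0.273. Wdfy1, Lyrm7 and Gm2a passed under each of those settings, with log2 differences of 2.19 to 2.74, 2.31 to 2.99 and -1.70 to -1.51.

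**Figure D1:**
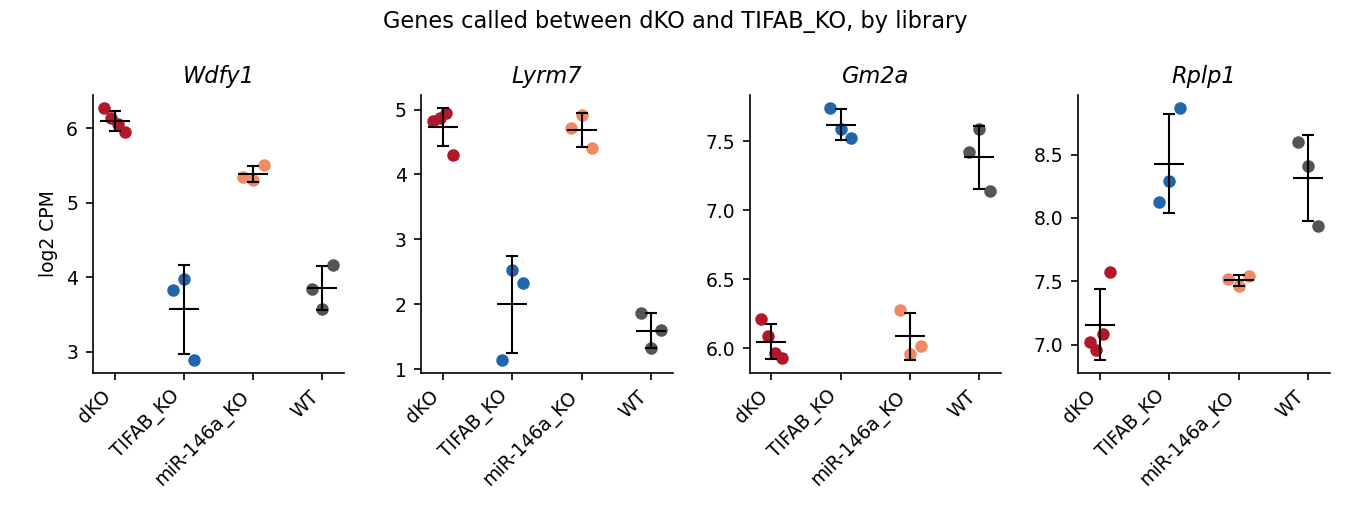
Log2 CPM of Wdfy1, Lyrm7, Gm2a and Rplp1 in each library (points), with the group mean and SD (bars), in dKO, TIFAB_KO, miR-146a_KO and WT. The dKO points lie above all TIFAB_KO points for Wdfy1 and Lyrm7 and below them for Gm2a and Rplp1, and the miR-146a_KO points lie on the same side of the WT points; each panel has its own scale, which does not start at 0.

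The plot of the called genes by library also shows the loss of miR-146a with Tifab intact. In miR-146a_KO against WT, Lyrm7 rose by 3.09 ± 0.32 (adjusted p = 0.000123), Wdfy1 rose by 1.53 ± 0.24 (adjusted p = 0.0114) and Gm2a fell by 1.30 ± 0.15 (adjusted p = 0.000314). Rplp1 had a difference of -0.81 there, which did not pass (adjusted p = 0.275). For Wdfy1 the miR-146a_KO libraries had 39.3 to 45.3 CPM, below all 4 dKO libraries, while WT and TIFAB_KO covered 11.9 to 17.9 and 7.39 to 15.8 CPM. The interaction, the difference between both losses of miR-146a, was 1.01 ± 0.33 for Wdfy1, with an unadjusted p of 0.00653 and an adjusted p of 0.943.

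Lyrm7 and Gm2a are both on chromosome 11, which also carries miR-146a. Lyrm7 lies at chr11:54826866-54860916 on the minus strand, 11.5 Mb from the microRNA, and Gm2a at chr11:55098115-55113029 on the plus strand, 11.7 Mb from it. Within 15 Mb on either side of miR-146a, 138 genes were tested and these 2 were called (1.45%), against 0.0337% of all tested genes. They were also the only calls among the 972 tested genes of the whole chromosome (0.206%). Any window that holds both has a higher share than the chromosome, so that contrast is no separate result. Of the 19 genes tested within 5 Mb, none was called. Ccdc69, which neighbours Gm2a, had a difference of -0.54 ± 0.22 (adjusted p = 0.21) and of -1.04 in miR-146a_KO against WT. Tnip1, a partner of the NF-kB inhibitor A20 in the same stretch, had -0.03, and Hint1, next to Lyrm7, had 0.02. From 11 to 12 Mb on this side of miR-146a, 12 genes were tested, Lyrm7 and Gm2a among them, with a median of -0.15. At an unadjusted p under 0.05, 4 of these 12 were lower and 1 higher, against 5.92% and 12.5% of all genes. Lyrm7 is the 1 higher gene and Gm2a is 1 of the 4 lower. The window is placed around them, so that contrast is no separate result either. Pttg1, which encodes the anaphase inhibitor securin and is the tested gene nearest to miR-146a, 0.0458 Mb away, had 5.31, 5.19, 5.62 and 4.78 log2 CPM in dKO and 4.31, 3.89 and 4.51 in TIFAB_KO. Its groups did not overlap, but its difference of 0.99 ± 0.26 did not pass the test (adjusted p = 0.133), and it was 0.91 in miR-146a_KO against WT. Irgm1, Tgtp1 and Ccng1, given further on with their lists, also lie within 15 Mb of miR-146a. Whether sequence or regulation near the deleted allele has a part in these values was not tested.

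**Figure D2:**
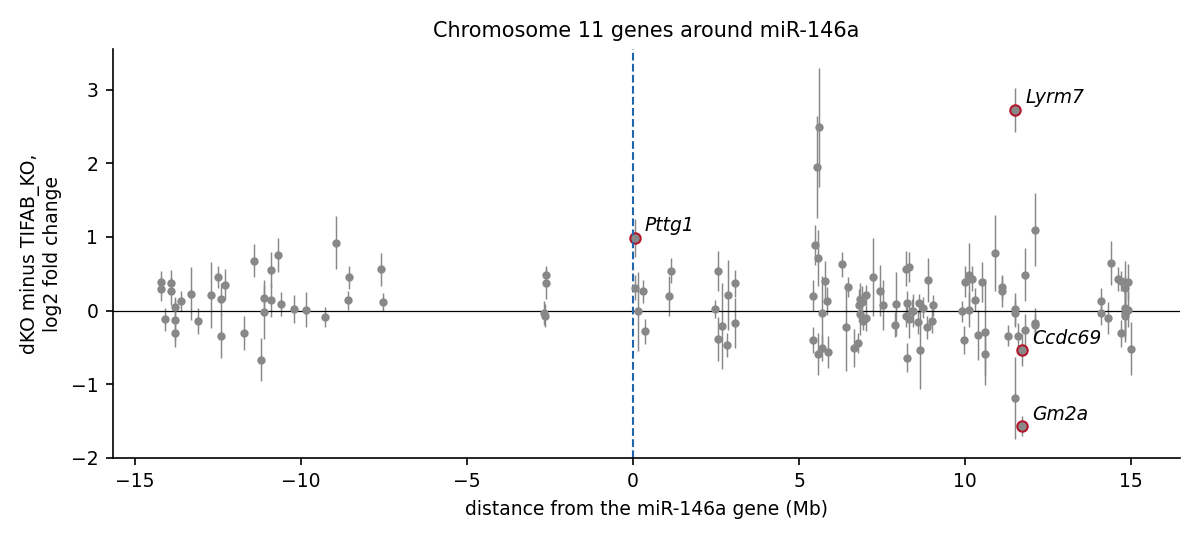
Difference of dKO minus TIFAB_KO (log2 fold change, bars ± SE) for the 138 tested genes within 15 Mb of the miR-146a gene on chromosome 11, by distance from it in Mb. Lyrm7 (2.73) and Gm2a (-1.57) lie close together at 11.5 and 11.7 Mb, while the genes between the microRNA and 5 Mb on either side were not called.

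The reported targets of miR-146a did not pass the test in dKO. Of 16 on the list, 12 reached the expression threshold, 8 of these were above 0, none was called (0.0337% of all genes were), and none had an unadjusted p under 0.05. Their median difference was 0.09, equal to that of all genes to 2 decimals, and between -0.04 and 0.19 when 1 library was left out. Traf6, the ubiquitin ligase with 4 seed matches, had 7.52, 7.58, 7.46 and 7.08 log2 CPM in dKO and 7.58, 7.08 and 6.63 in TIFAB_KO, and these groups overlapped. Its difference was 0.31 ± 0.19 (adjusted p = 0.369), and 0.08 without TIFAB_KO replicate 3. Irak1, the kinase with 2 matches, had 7.49, 7.40, 7.41 and 7.46 log2 CPM in dKO and 7.52, 7.38 and 7.31 in TIFAB_KO. Its difference of 0.03 ± 0.12 (adjusted p = 0.902) was smaller than the spread within TIFAB_KO. Smad4, the common mediator of TGF-beta signalling, had 0.36 ± 0.19, and the kinase Irak2, with 2 matches, -0.11 ± 0.21. The receptors Tlr4, Notch1 and Cxcr4 had -0.08, -0.20 and -0.07.

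Across all tested genes, those with a seed match had a median difference of 0.16 and those without one 0.08. Genes with a match also had longer 3′ untranslated regions, with medians of 2680 and 1060 bases. Within 3 groups of genes by that length the medians of genes with and without a match were -0.07 and -0.06, 0.08 and 0.09, and 0.22 and 0.20. After a trend with transcript length was removed, the medians were 0.00 and 0.00. In the group with the shortest regions, however, the medians with that trend removed were -0.12 with a match (108 genes) and -0.05 without one, and -0.11 and -0.06 without TIFAB_KO replicate 3.

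The pathway that miR-146a and TIFAB both act on was represented by 45 genes for TRAF6, Toll-like receptor and NF-kB components, all of them tested. Wdfy1 was the member called, 26 members were above 0 and 19 below, and 7 were higher and 2 lower at an unadjusted p under 0.05 (15.6 and 4.44%, near the 12.5 and 5.92% of all genes). In 7 members (15.6%, against 6.82% of all genes) all dKO libraries were above all TIFAB_KO libraries, and without TIFAB_KO replicate 3 there were 4 higher and 3 lower at an unadjusted p under 0.05. Chuk, a kinase that phosphorylates the NF-kB inhibitor, had 6.03, 5.89, 5.83 and 5.93 log2 CPM in dKO and 5.57, 5.63 and 4.84 in TIFAB_KO. Its difference was 0.57 ± 0.17 (adjusted p = 0.155). Ube2n, the ubiquitin-conjugating enzyme that works with TRAF6, had 0.48 ± 0.17 (adjusted p = 0.179), and Tifa, the TRAF6-binding relative of TIFAB, -0.22 ± 0.20 (adjusted p = 0.573).

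Genes that NF-kB induces were also not called. Of 31 tested, 19 were above 0, and 2 were higher at an unadjusted p under 0.05 (6.45%, against 12.5% of all genes). Cxcl2, a chemokine for neutrophils, had 2.83, 2.36, 4.30 and 2.61 log2 CPM in dKO and 2.34, 1.36 and 1.51 in TIFAB_KO, with a difference of 1.28 ± 0.41 (adjusted p = 0.163). The lowest dKO library was just above the highest TIFAB_KO library. Tnfaip3, which encodes A20, had 7.97, 7.72, 8.92 and 7.80 log2 CPM in dKO and 8.68, 6.57 and 6.69 in TIFAB_KO. There TIFAB_KO replicate 1 lay above 3 of the 4 dKO libraries, and the difference was 0.79 ± 0.39 (adjusted p = 0.282). Of 48 interferon response genes, 28 were above 0 and 20 below (58.3% above, against 60.1% of all genes) and none was called. At an unadjusted p under 0.05, 6 were higher (12.5%, as among all genes) and 3 lower (6.25%, against 5.92%), so the list stood at the background. Irgm1 and Tgtp1, interferon-induced GTPases, had 0.89 ± 0.27 (adjusted p = 0.155) and 2.49 ± 0.81 (adjusted p = 0.163). In miR-146a_KO against WT they had 1.04 and 2.83, where neither passed. Tgtp1 was scarce, with means of 1.89 log2 CPM in dKO (SD 1.75) and -0.59 in TIFAB_KO (SD 1.08). Irgm1 (chr11:48861968-48871683) and Tgtp1 (chr11:48985327-48994172) lie within 15 Mb of miR-146a. For them, position near the deleted allele and a response to interferon cannot be told apart. Ifi47, an interferon-induced GTPase on the lower side, had -0.51 ± 0.18 (adjusted p = 0.179).

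Below the threshold of the test, the genes with the smallest p-values and no overlap between groups were named up to 10 in each direction, and none of them passed. On the higher side these were Ank1, the ankyrin that anchors spectrin in the red cell membrane (0.79 ± 0.15, adjusted p = 0.0774), Spire1, an actin nucleator (0.86 ± 0.17, adjusted p = 0.0857), and Vps13c, a lipid transfer protein (0.89 ± 0.18, adjusted p = 0.13). Also among them were Mc2r, the corticotropin receptor, with 1.37, and with 0.68 to 0.77 Tgfbr3, a TGF-beta co-receptor, Nol11, which acts in ribosomal RNA synthesis, Sos1, an activator of Ras, and Cmah, which modifies sialic acid. Most of these have long transcripts, such as 8366 bases for Ank1 and 11527 for Vps13c. With the trend with transcript length removed, Ank1 had 0.51, Spire1 0.66, Vps13c 0.56, Tgfbr3 0.46, Sos1 0.42 and Cmah 0.40. Mc2r and Nol11 then had 1.45 and 0.71. On the lower side were Rplp2, the partner of Rplp1 in the ribosomal stalk (-0.87 ± 0.16, adjusted p = 0.0669), Uap1l1 (-1.29 ± 0.24, adjusted p = 0.0669) and Crip1, a small LIM-domain protein (-0.99 ± 0.19, adjusted p = 0.0832). Rps14, a small-subunit ribosomal protein whose human gene lies in the stretch lost in the 5q- syndrome, had 7.10, 6.93, 6.92 and 7.77 log2 CPM in dKO and 7.86, 8.16 and 9.32 in TIFAB_KO. Its difference was -1.27 ± 0.27 (adjusted p = 0.13) and -0.83 without TIFAB_KO replicate 3, the highest library.

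Ribosomal protein genes were lower in dKO as a group, although Rplp1 was the one member called. Of 79 tested, 76 were below 0 (96.2%, against 39.9% of all genes), 57 had an unadjusted p under 0.05 on the lower side (72.2%, against 5.92%) and in 28 the groups did not overlap (35.4%, against 3.84%). The mean level of the list was 8.62, 8.66, 8.63 and 8.95 log2 CPM in dKO and 9.10, 9.06 and 9.67 in TIFAB_KO. All 4 dKO libraries were thus below all 3 TIFAB_KO libraries, with dKO replicate 4 and TIFAB_KO replicate 3 the highest of their groups. The median difference was -0.58, with -0.55 over 46 large-subunit and -0.60 over 33 small-subunit genes, and Rpl30 had the lowest value, -1.98. It was -0.33 without TIFAB_KO replicate 3, -0.45 with the length trend removed, and -0.56 to -0.68 under 3 other scalings. The number of members called was 33 without dKO replicate 4 and 0 without TIFAB_KO replicate 3. Without the TIFAB_KO library, 33 members had an unadjusted p under 0.05 on the lower side, when 3.36% of all genes did on that side and 4.55% on the higher side. Many ribosomal protein genes have processed pseudogenes of near-identical sequence, so single values are uncertain. With Tifab intact the list mean was 8.86, 8.89 and 8.73 log2 CPM in miR-146a_KO and 9.45, 9.11 and 9.14 in WT, a median difference of -0.38, and no member had an interaction p under 0.05.

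Genes of the nuclear-encoded respiratory chain (median transcript 1231 bases, against 1059 for ribosomal protein genes) had a smaller difference. Of 75 tested, 61 were below 0 and 22 passed an unadjusted p of 0.05 on the lower side (29.3%, against 5.92%), with none called. Their median was -0.26, but -0.10 without TIFAB_KO replicate 3 (7 members then at an unadjusted p under 0.05) and -0.12 with the length trend removed. Cox4i1, a subunit of cytochrome c oxidase, had 4.87, 4.93, 5.06 and 6.44 log2 CPM in dKO and 5.82, 6.71 and 7.31 in TIFAB_KO. Its dKO replicate 4 lay inside the range of TIFAB_KO, and the difference of -1.29 ± 0.37 did not pass (adjusted p = 0.139). Atp5e, a small subunit of ATP synthase, had -0.78 ± 0.21 (adjusted p = 0.132).

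Granulocyte-monocyte progenitor genes were lower in dKO than in TIFAB_KO in the sense of their counts, with no single gene called. Of 28 tested, 25 were below 0 (89.3%, against 39.9% of all genes), 12 had an unadjusted p under 0.05 on the lower side (42.9%, against 5.92%) and in 6 the groups did not overlap (21.4%, against 3.84%). The median difference was -0.41. Without TIFAB_KO replicate 3 it was -0.40, with 8 members at an unadjusted p under 0.05 on the lower side. Prtn3, the azurophil granule protease proteinase 3, had 7.54, 7.07, 8.10 and 7.65 log2 CPM in dKO and 8.21, 8.82 and 9.0 in TIFAB_KO, a difference of -1.09 ± 0.25 (adjusted p = 0.13). Ctsg, cathepsin G of the same granules, had 8.98, 8.30, 9.17 and 8.98 in dKO and 9.46, 9.85 and 10.12 in TIFAB_KO, a difference of -0.95 ± 0.23 (adjusted p = 0.13). Both proteases were lower in every dKO library than in any TIFAB_KO library. Gfi1, a repressor needed for granulocyte formation, had 3.93, 2.91, 3.98 and 3.14 in dKO and 4.50, 4.72 and 4.43 in TIFAB_KO, and Cebpa, the factor that starts granulocyte-monocyte commitment, had 4.76, 3.65, 4.39 and 3.87 in dKO and 4.92, 4.95 and 4.93 in TIFAB_KO. Their differences were -1.06 ± 0.30 (adjusted p = 0.137) and -0.77 ± 0.24 (adjusted p = 0.155). In these bulk samples, fewer cells of a type and less RNA per cell cannot be told apart. The mean level of the list overlapped between groups, at 6.72, 6.40, 7.03 and 6.32 log2 CPM in dKO and 6.93, 7.22 and 7.11 in TIFAB_KO. Late granulocyte genes varied far more among libraries, from 1.53 in dKO replicate 4 to 4.50 in dKO replicate 3 and from 1.74 to 3.77 in TIFAB_KO, and their part in the values was not tested.

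With Tifab intact the same progenitor genes went the other way in their median, which was 0.21 in miR-146a_KO against WT with 24 of 28 above 0. The mean level of the list was 6.78, 6.68 and 6.5 log2 CPM in miR-146a_KO and 6.67, 6.48 and 6.0 in WT. These groups overlapped, and WT replicate 3 was the lowest, as it was within WT for Prtn3 and Gfi1. The median interaction was -0.72, and 12 of 28 had an unadjusted interaction p under 0.05 on the negative side, against 2.6% of all genes. How far the median of 0.21 and the interaction of the list rest on WT replicate 3 was not tested. Prtn3 had an interaction of -1.49 ± 0.37 (unadjusted p = 0.0008, adjusted p = 0.577) and Gfi1 of -1.78 ± 0.44 (unadjusted p = 0.000686, adjusted p = 0.543). No gene of any kind passed the interaction test, for which the smallest adjusted p was 0.543 and 509 genes (4.29%) had an unadjusted p under 0.05.

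Erythroid genes were higher in dKO by the same kind of count. Of 35 tested, 29 were above 0 (82.9%, against 60.1% of all genes), 11 were higher at an unadjusted p under 0.05 (31.4%, against 12.5%) and in 6 the groups did not overlap (17.1%, against 6.82%), with none called. The median was 0.24. Without TIFAB_KO replicate 3 it was 0.36, with 10 members higher at an unadjusted p under 0.05. Ank1 had 5.77, 5.95, 6.0 and 6.11 log2 CPM in dKO and 5.15, 5.25 and 5.11 in TIFAB_KO. It was higher in every dKO library than in any TIFAB_KO library. Bcl11a, a repressor of fetal globin, had 0.44 ± 0.13 (adjusted p = 0.152), and Cpox, an enzyme of heme synthesis, 0.53 ± 0.17 (adjusted p = 0.16). The mean level of the list was 5.34, 5.61, 5.67 and 5.74 log2 CPM in dKO and 5.35, 5.24 and 5.30 in TIFAB_KO, so dKO replicate 1 fell within the range of TIFAB_KO. The alpha- and beta-globin genes were listed at 0 reads in all 7 libraries, as were the ribosomal protein gene Rpl26 and the respiratory chain gene Ndufs5. Such a 0 cannot be read as absent expression, since how reads were assigned to these genes was not tested. With Tifab intact the median was -0.05, and 10 of 35 genes had an unadjusted interaction p under 0.05 on the positive side, against 1.69% of all genes. The mean level of the list was 5.36, 5.64 and 5.48 log2 CPM in miR-146a_KO and 5.47, 5.45 and 5.81 in WT. These groups overlapped, with WT replicate 3 the highest, and how far the interaction of the list rests on that library was not tested.

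Megakaryocyte and platelet genes included 5 of 33 in which all dKO libraries were below all TIFAB_KO libraries (15.2%, against 3.84%). Their median was -0.11, but 0.11 without dKO replicate 4, so its direction rested on that library. Itga2b, the integrin CD41, had 5.49, 5.42, 5.26 and 5.56 log2 CPM in dKO and 6.05, 6.09 and 6.04 in TIFAB_KO, a difference of -0.63 ± 0.18 (adjusted p = 0.143). Pf4, a platelet chemokine, had -0.64 ± 0.21 (adjusted p = 0.171), and the differences in miR-146a_KO against WT were -0.39 for Itga2b and -0.73 for Pf4. Stem cell and multipotent progenitor genes had a median of 0.12, close to that of all genes, and -0.02 without TIFAB_KO replicate 3. Genes of lymphoid and stromal cells were few above the threshold (11 of 28 for the B lineage, 10 of 30 for T and NK cells, 12 of 30 for stroma and endothelium), and their medians lay between -0.08 and 0.04. With 1 library left out these ran between -0.13 and 0.42 for the B lineage (0.42 without dKO replicate 3), -0.17 and 0.16 for T and NK cells, and -0.20 and 0.18 for stroma and endothelium.

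Genes of G2 and mitosis were above 0 in 40 of 45 cases (88.9%, against 60.1%), with 13 higher at an unadjusted p under 0.05 (28.9%, against 12.5%) and none called. Without TIFAB_KO replicate 3 that count was 6 of 45. Ckap2, a spindle protein, had 5.61, 5.92, 5.38 and 5.35 log2 CPM in dKO and 4.73, 5.08 and 4.85 in TIFAB_KO. All dKO libraries were higher, and the difference was 0.68 ± 0.17 (adjusted p = 0.13). The median of the list was 0.25, 0.18 without TIFAB_KO replicate 3 and 0.11 with the length trend removed, while S phase genes had a median of 0.07.

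**Figure D3:**
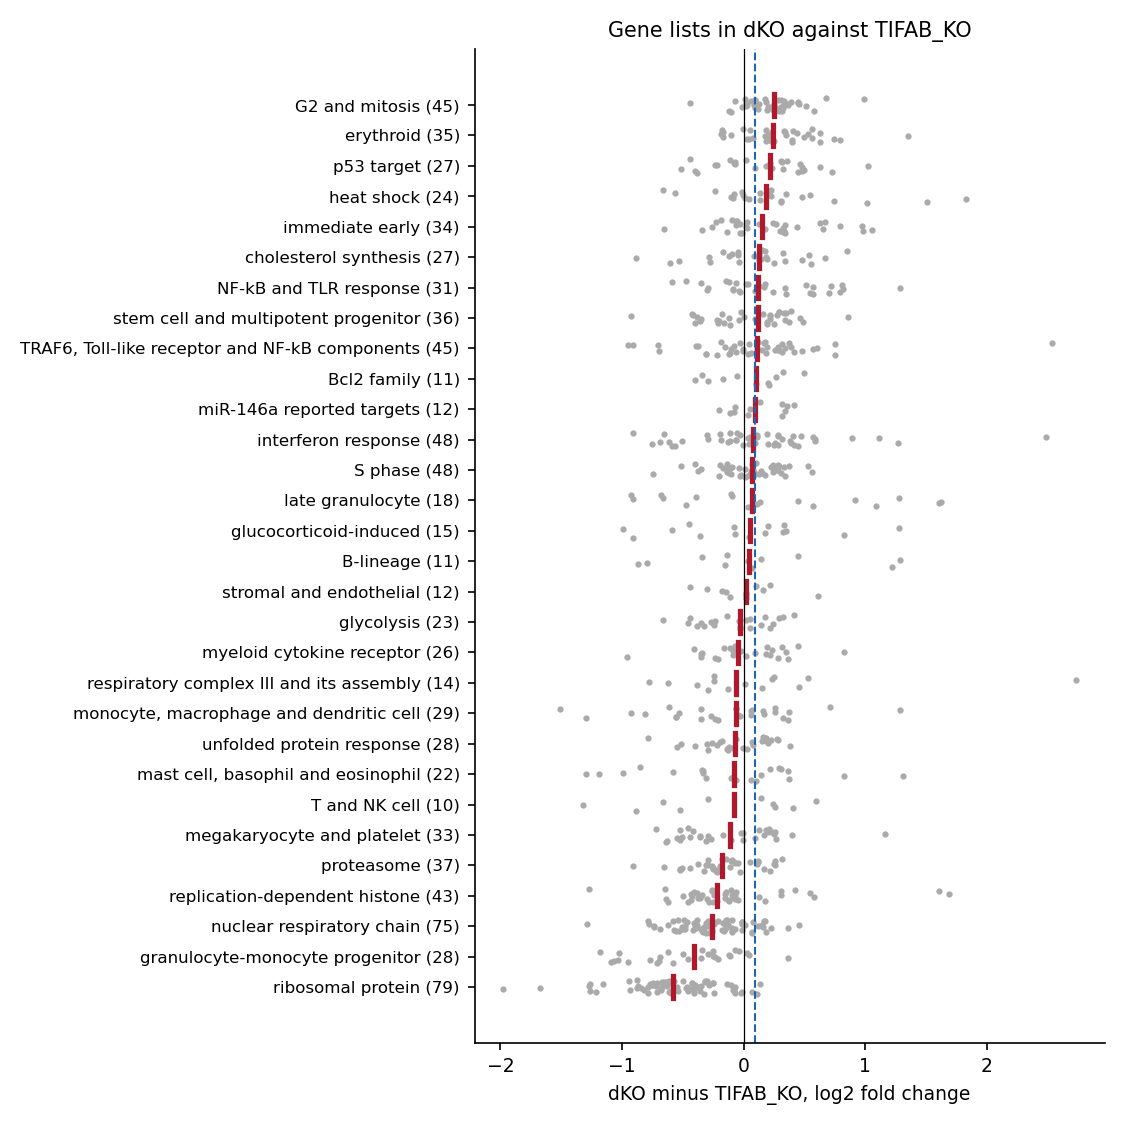
Difference of dKO minus TIFAB_KO (log2 fold change) for each tested member of 30 gene lists (grey points, number tested in brackets), with the list median as a red bar, the median of all genes as a dashed line and 0 as a solid line. Ribosomal protein genes (median -0.58) and granulocyte-monocyte progenitor genes (-0.41) lie furthest below the dashed line, and G2 and mitosis (0.25) and erythroid genes (0.24) furthest above it.

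Under median centring, quantile and TMM scaling the medians of the ribosomal protein, respiratory chain, granulocyte-monocyte progenitor, megakaryocyte, erythroid and mitosis lists had the same sign (that of the megakaryocyte list turned without dKO replicate 4), while that of S phase genes lay between -0.03 and 0.02. The plot of gene lists has to be read beside transcript length, because the difference between the groups followed it. When the tested genes were divided into 10 equal groups by transcript length, the median difference was -0.209 in the shortest group (up to 1393 bases) and 0.297 in the longest (from 6773 bases). Without TIFAB_KO replicate 3 it ran between -0.124 and 0.11. That library deviated from the mean of all 13 libraries by 0.333 in the shortest group and by -0.552 in the longest, more than any other. A trend of the same direction, -0.0851 to 0.21, was present in miR-146a_KO against WT. With the trend removed, the same 4 genes were called, and the medians were -0.45 for ribosomal protein genes, -0.45 for granulocyte-monocyte progenitor genes and 0.22 for erythroid genes. RNA quality and amplification, which can act by transcript length, were not tested.

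**Figure D4:**
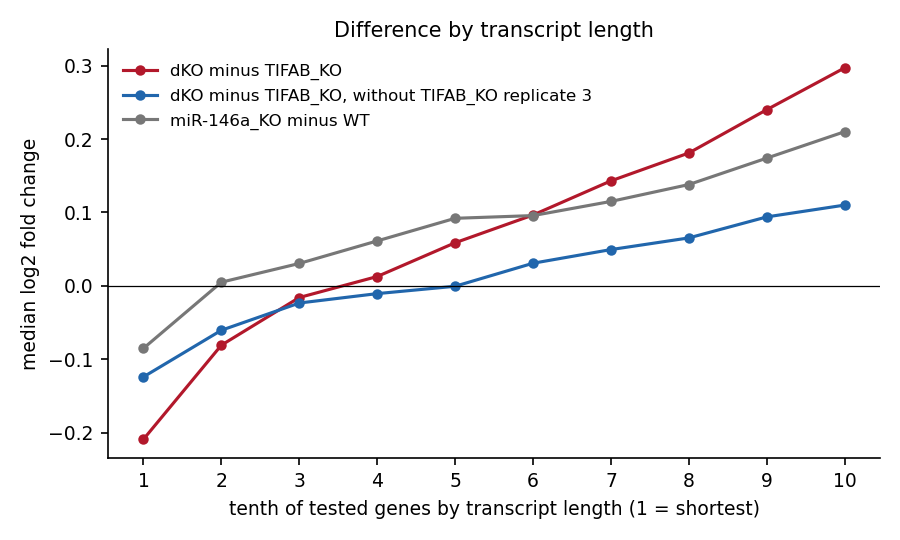
Median log2 fold change of tested genes in 10 equal groups by transcript length, from the shortest to the longest, for dKO minus TIFAB_KO with all libraries (red) and without TIFAB_KO replicate 3 (blue), and for miR-146a_KO minus WT (grey). The red line runs between -0.209 and 0.297 and is steeper than the blue line, which runs between -0.124 and 0.11.

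Both losses of miR-146a were set side by side over all tested genes. They share no library, and Pearson's r between them across genes was 0.333, and 0.294 with the length trend removed (genes are not independent replicates). Of the 1483 genes higher in dKO at an unadjusted p under 0.05, 1312 (88.5%) had a positive difference in miR-146a_KO against WT, which 62.1% of all genes had. Of the 702 lower genes, 539 (76.8%) had a negative one, against 37.9% of all genes. Both differences followed transcript length in the same direction. These counts were not made with that trend removed, so its part in them was not tested.

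In miR-146a_KO against WT, 10 genes were called (0.0843%), 6 higher (0.0506%) and 4 lower (0.0337%). At an unadjusted p under 0.05 there were 1140 (9.61%), of which 863 were higher (7.27%) and 277 lower (2.33%). Lyrm7, Wdfy1 and Gm2a were among them, and 8 of the 10 had the same sign in dKO against TIFAB_KO. Cmss1 fell by 2.48 with Tifab intact. In dKO it had 3.88, 3.26, 3.02 and 3.78 log2 CPM, and in TIFAB_KO 4.64, 4.31 and 4.63, a difference of -1.04 ± 0.25 that did not pass (adjusted p = 0.13), with an interaction of 1.44 ± 0.37 (adjusted p = 0.6). Vps13c rose by 1.13 with Tifab intact and had 0.89 in dKO. Dio2, the deiodinase that activates thyroid hormone, rose by 1.32 with Tifab intact, while it had 6.75, 6.09, 6.84 and 5.86 log2 CPM in dKO and 6.16, 6.74 and 6.52 in TIFAB_KO. The TIFAB_KO values lay inside the range of dKO, the difference was -0.09 ± 0.22 (adjusted p = 0.85), and the interaction was -1.41 ± 0.32 (adjusted p = 0.543). Efcab7, a ciliary protein gene, and F630028O10Rik, whose annotated exons hold the microRNA miR-223, rose by 1.38 and 1.26 with Tifab intact and had 0.19 and -0.04 in dKO against TIFAB_KO.

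**Figure D5:**
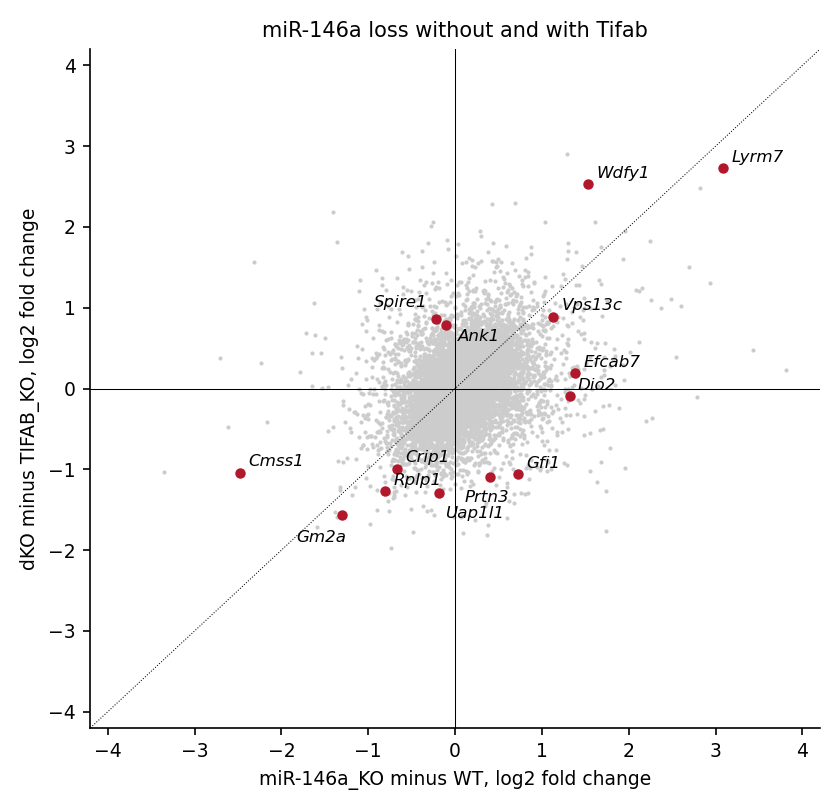
Log2 fold change of each tested gene (grey) in dKO minus TIFAB_KO (vertical) against miR-146a_KO minus WT (horizontal), with the line of equality dotted and named genes in red. Lyrm7, Wdfy1 and Gm2a lie far from the origin in both, Cmss1, Dio2 and Efcab7 lie mainly along the horizontal axis, Ank1 and Spire1 mainly along the vertical one, and Prtn3 and Gfi1 below 0 on the vertical and above 0 on the horizontal axis.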

How the data were processed

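Amplification used Ovation RNA-Seq System v2 and libraries used Nextera XT, per the labels' protocols. The submitters' processing notes name TopHat, featureCounts, limma and the build mm10, with versions and strand setting not given in the sources used here. Per the file headers and values, the deposited values are log2 CPM of the voom form; whole reads were recovered for 100% of values within 0.01 read. Kits of this type do not mark strand, so overlapping genes cannot be separated.

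Here limma 3.58.1 (R 4.3.3) was fitted to the deposited log2 CPM of all 13 libraries in 4 groups (9 residual degrees of freedom), with a variance trend and Benjamini-Hochberg adjustment over 11866 genes; the code was tested on simulated data. GENCODE M21 on GRCm38 gave positions, transcript lengths and untranslated regions (98.4% of rows matched), and RefSeq the microRNA sequences. Genes were named by rule: called genes, then the smallest p without overlap (1 unnamed locus left out per direction), up to 4 members per list, and reported targets; Mrpl44, Rpl30, Ifi47 and the neighbours of Lyrm7 and Gm2a were chosen after their values were seen. Members and lists were chosen with earlier results of these data known. Alternatives covered filters, scaling, variance models, library weights, a prior count of 2 reads, the replicate number and each library in turn. Some items are not reported here. Log2 differences understate changes of low genes. Rows with 0 reads in every library (4055) stayed out of the tests.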

Additional observations from a re-analysis of the deposited data

Results flagged for a closer look

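In the group of 4 dKO libraries, the value of 1 library lay far from the other 3 by Dixon's test at the 95% level for 9 of 154 named genes and 1 of 34 list means. Chance flags about 1 in 20 such groups, and 10 of 188 were found here. All values are log2 CPM.

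In dKO replicate 3, Nfkbia, which encodes the NF-kB inhibitor IkB-alpha, was highest at 6.71 (next 5.75), the histone gene Hist1h2ai was highest at 1.86 (next 1.30), the cytokine receptor Flt3 was lowest at 4.53 (next 6.03), and Rnase12 was lowest at -0.42 (next 0.49). In dKO replicate 4, the respiratory chain genes Cox4i1 and Uqcrh were highest at 6.44 (next 5.06) and 7.18 (next 6.86), the histone gene Hist1h2bl was highest at 5.93 (next 5.46), and the mean of the ribosomal protein genes was highest at 8.95 (next 8.66). In dKO replicate 1, Bcl11a was lowest at 7.70 (next 7.81) and Manf, a secreted protein of the endoplasmic reticulum, was highest at 5.27 (next 5.01). For Bcl11a the 4 values span so little that this distance is small beside the difference to TIFAB_KO, where the values were 7.38, 7.48 and 7.18.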

How the results depend on the processing

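The count of genes called in dKO against TIFAB_KO was 4 and depended on single libraries: leaving out 1 of the 13 in turn gave 3 to 282 calls, with 282 (133 higher, 149 lower) without dKO replicate 4 and 121 (101 higher, 20 lower) without TIFAB_KO replicate 2, and 3 without TIFAB_KO replicate 3. The 4 genes were among the calls in both larger sets, and the cause was not tested. An adjusted p under 0.1 gave 9 calls, and no filter gave 6. A fit with the replicate number as a block gave 146 calls (60 higher, 86 lower), and 112 with the length trend also removed, an alternative chosen after seeing the data. Only dKO has a replicate 4, so in the block fits dKO replicate 4 has a term of its own and adds nothing to the difference. Those fits thus also leave that library out and are not separate from the setting without it. The numbers do not pair the libraries by the labels, and same-numbered dKO and TIFAB_KO libraries deviated together with correlations of 0.0687, -0.0432 and 0.00625; 2 of the 3 dKO libraries correlated best with their own number. The other settings gave 3 to 5 calls, among them Rps14 without TIFAB_KO replicate 1, and Rplp1 was lost in 6 of 27 settings. TMM scaling moved the median difference of all genes to -0.01, by about 0.1. The interaction had 0 calls in each setting run except without TIFAB_KO replicate 1, where Egr3 was called, so that leaving out 1 library gave 0 to 1. The planned edgeR test was not run, since the deposited values are log2 CPM and not counts; limma-voom on recovered reads was run. No value that was called changed sign. As to depth, 3 reads, the limit that a count of 0 allows, are 0.235 to 0.372 CPM in these 7 libraries, for counting error only.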

Other observations

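Immediate early genes, which cells switch on within minutes of a stimulus, had a median difference of 0.15 in dKO against TIFAB_KO and of -0.42 in miR-146a_KO against WT. The median interaction was 0.57, and 10 of 34 had an unadjusted interaction p under 0.05 on the positive side, against 1.69% of all genes, with none passing the adjustment. Egr2, a transcription factor of this group, had 2.69, 2.98, 3.52 and 3.37 log2 CPM in dKO and 2.97, 1.55 and 1.95 in TIFAB_KO, and Nr4a2, a nuclear receptor, had 5.43, 5.29, 5.51 and 4.82 in dKO and 5.26, 4.06 and 4.08 in TIFAB_KO. For both genes TIFAB_KO replicate 1 lay within the range of dKO. With 1 library left out in turn, the median of the list lay between -0.02 (TIFAB_KO replicate 2) and 0.42 (TIFAB_KO replicate 1).

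Among targets of p53, 6 of 27 tested genes were higher at an unadjusted p under 0.05 (22.2%, against 12.5%), and 3 without TIFAB_KO replicate 3. The median of the list was 0.22, and 0.05 without that library. Zmat3, an RNA-binding protein, had 4.72, 5.48, 5.66 and 5.11 log2 CPM in dKO and 4.26, 4.43 and 3.96 in TIFAB_KO, a difference of 1.03 ± 0.25 (limma adjusted p = 0.13). Ccng1, cyclin G1, had 0.48 ± 0.13 (adjusted p = 0.135) and lies within 15 Mb of miR-146a (chr11:40748552-40755311). Heat shock genes had 6 of 24 in which all dKO libraries were above all TIFAB_KO libraries (25.0%, against 6.82%), while 4 were higher at an unadjusted p under 0.05 (16.7%, near the 12.5% of all genes). Among the first were Hsp90aa1 with 0.48 ± 0.15 (adjusted p = 0.16) and Hsph1 with 0.74 ± 0.34 (adjusted p = 0.251). The immunoproteasome subunits Psmb8 and Psmb9 had -0.66 ± 0.19 (adjusted p = 0.141) and -0.91 ± 0.24 (adjusted p = 0.13), and in both all dKO libraries were below all TIFAB_KO libraries. In their list of 37 proteasome genes, 27 were below 0 and none was called. The groups did not overlap in 4 lower members (10.8%, against 3.84% of all genes) and 3 higher ones (8.11%, against 6.82%). Its median was -0.18, but -0.06 without TIFAB_KO replicate 3 and -0.07 with the length trend removed. Mast cell, basophil and eosinophil genes went both ways: of 22 tested, 10 were above 0 and 12 below, the median was -0.08 (0.18 without dKO replicate 4), single values spanned -1.30 to 1.31, and 3 were higher and 2 lower at an unadjusted p under 0.05. The replication-dependent histone genes, which are very short, had a median of -0.22, and 0.02 without TIFAB_KO replicate 3.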
